A study of Mus musculus with 10 samples.

Results

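The genes described here are 36 genes of antioxidant defence and of the NRF2 pathway, chosen as a list of symbols and looked up in the deposited table of islet RNA sequencing. All 36 were found by symbol among its 27665 genes, and 35 had enough reads to be tested. Pancreatic islets, the endocrine clusters that hold the insulin-producing beta cells, came from 10 C57BL/6J mice, an inbred laboratory strain. The mice entered at 8 to 10 weeks of age and ate either a western diet (5 mice) or standard chow (5 mice) for 4 weeks, with no allele or agent named beside the diet. Islets were processed right after isolation and each mouse gave 1 library. All chow mice came from cage 3, while 4 western diet mice came from cage 4 and 1 from cage 2, so diet and cage cannot be told apart. Mice are named below by cage and mouse number, c3m1 being mouse 1 of cage 3; where 5 values follow each other they run from c3m1 to c3m5 on chow, and c4m1, c4m2, c4m5, c4m4 and c2m5 on western diet.

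NRF2, encoded by Nfe2l2, is a transcription factor that KEAP1 holds in the cytosol and directs to degradation; when oxidants modify KEAP1, NRF2 reaches the nucleus, pairs with a small MAF protein and switches on genes that carry an antioxidant response element. Its targets make glutathione, feed the thioredoxin and peroxiredoxin cycles and supply NADPH. Much of this control acts on proteins, which RNA levels do not show. Beta cells are known for low levels of several enzymes that remove hydrogen peroxide, catalase among them.

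Libraries held 16532518 to 23902681 counted reads. Levels are given as CPM, read counts scaled to a common library size, and a gene was called where edgeR's quasi-likelihood test gave an adjusted p under 0.05 over 15104 genes. Beta cell markers summed to 230900 to 267000 CPM on chow and 242000 to 276700 on western diet, and none of the 69 cell type and stress markers was at 0 in all libraries. Summed acinar markers ranged from 529.7 to 2343 CPM on chow and from 630.1 to 4633 on western diet, macrophage markers from 72.54 to 92.06 and from 56.75 to 100.1, red blood cell markers from 9.393 to 19.49 and from 10.95 to 17.16. Endothelial markers lay between 299 and 328.8 CPM on chow and 256.4 and 305.6 on western diet, fibroblast markers between 25.04 and 134.5 and between 22.44 and 47.72, duct markers between 280.5 and 306.8 and between 284 and 301.3, and alpha cell markers between 10500 and 15620 and between 9955 and 13750. Delta cell markers (1946 to 2396 and 2013 to 2310) and Ppy of PP cells (962.5 to 3627 and 1312 to 2409) overlapped between diets as well, as did the sums of all these lists. Single markers within them did change: Iapp, G6pc2 and Ttr rose, and Slc2a2, Krt19, C1qa, Kdr and Pdgfrb fell, Krt19 by 84.0% at a mean of 3.58 CPM on chow. In contrast, 11 of 11 immediate early and heat shock genes, which respond to tissue dissociation, fell: they summed to 15830 to 19460 CPM on chow and 8728 to 10790 on western diet. The part of these genes and of the markers in the changes below was not tested. In whole islets, fewer cells of a type and less RNA per cell cannot be told apart.

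Most antioxidant genes were not called between the diets. Of the 35 tested, 4 rose (Prdx6, Srxn1, Gclc and Keap1), 1 fell (Sesn3) and 30 were not called. Not called does not mean unchanged: log2 estimates of uncalled genes ran from -0.34 for Trp53inp1 to 0.38 for Gpx7. The share that rose was 11.4% against 5.27% of all genes tested, and the share that fell was 2.86% against 5.5%. Counts this small move easily: without western diet c4m1 or without chow c3m1, 2 genes rose (Prdx6 and Srxn1). The median log2 fold change of the 35 genes, western diet over chow, was 0.07 against 0.01 over all genes tested, and 25 of them (71.4%) lay above 0 against 51.0% of all genes. With each mouse left out, the median of the 35 genes ran from 0.037 (without chow c3m1) to 0.083 (without chow c3m2). Every western diet mouse lay above every chow mouse for 3 genes (Prdx6, Gclc and Keap1) and below for 0, where 4.44% and 4.42% of all genes separated in this way. In the authors' deposited table, 4 of the 36 genes had an adjusted p under 0.05 and were higher, and 3 were lower (Sesn3, Trp53inp1 and Gstm1). Over all its 27665 genes the shares were 3.38% and 3.67%. These count genes with too few reads to be tested here, so they cannot be set beside the shares over 15104 genes above.

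**Figure D1:**
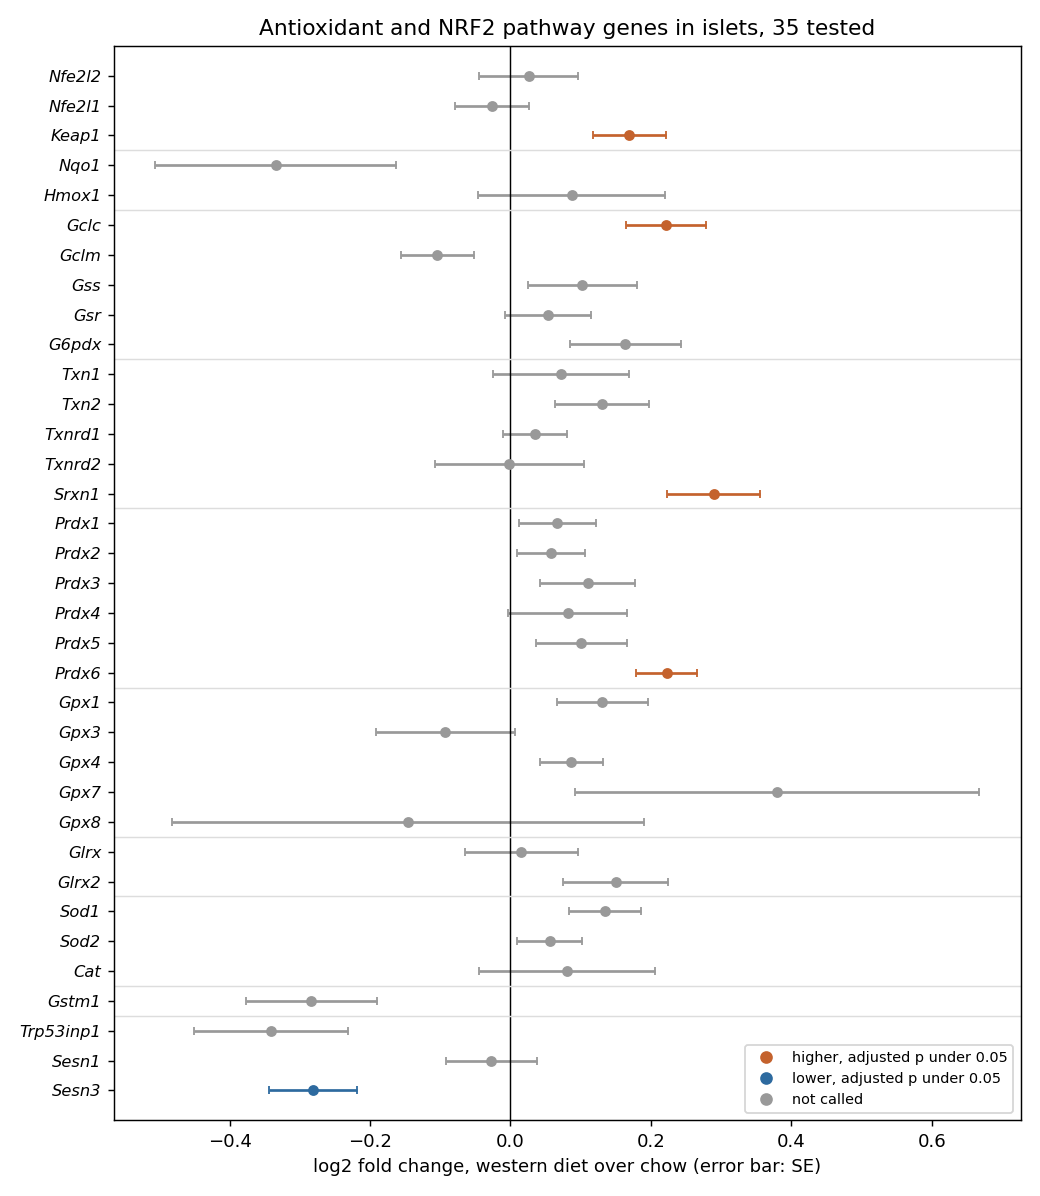
Log2 fold change of western diet over chow (horizontal axis) for the 35 tested genes, ordered by role and separated by grey lines. Points are edgeR estimates and bars their standard errors; the 4 orange genes lie between 0.17 and 0.29 and the blue gene, Sesn3, at -0.28.

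The regulators came first in the pathway and differed little. Nfe2l2 (ENSMUSG00000015839, GRCm38 chromosome 2, 75675513 to 75704641) had 34.1, 32.4, 36.6, 33.5 and 34.8 CPM in the chow mice and 38.0, 36.3, 32.3, 29.9 and 37.9 on western diet. The diets overlapped fully, with the lowest and the highest value both on western diet, and Nfe2l2 was not called (0.03 ± 0.07 in log2, SE, edgeR adjusted p = 0.856). Nfe2l1, which encodes the related factor NRF1 and serves proteasome genes as well, was more abundant per gene length (71.0 against 9.11 RPKM, the CPM divided by the deposited gene length in kilobases) and was not called either, at 382.7 ± 27.9 CPM on western diet and 389.7 ± 12.9 on chow (means ± SD of 5 mice).

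Keap1, the sensor that restrains NRF2, was the only one of these 3 regulators to be called. Its chow levels were 61.0, 64.7, 68.4, 71.6 and 70.7 CPM, and its western diet levels 73.7, 76.4, 78.3, 76.7 and 73.1. Every western diet mouse lay above every chow mouse, by a narrow margin (0.17 ± 0.05 in log2, SE, edgeR adjusted p = 0.0445; chromosome 9, 21229730 to 21239361). Keap1 was called in 7 of 20 alternative fits. The call was lost with RLE factors (edgeR adjusted p = 0.0513), upper quartile factors (0.0582), no filter (0.0642) or a minimum of 5 CPM (0.0531), without western diet c2m5 and chow c3m1 together (0.0995), and in 7 of 10 fits that left out 1 mouse, those without western diet c4m1 (0.0594), c4m2 (0.0815), c4m4 (0.101) or c4m5 (0.0979) and without chow c3m1 (0.138), c3m2 (0.0822) or c3m3 (0.0839). An antisense gene, Gm16754, shares exon bases with Keap1 and held 0.339 to 1.30 CPM.

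The classic NRF2 readouts were low and were not called. Nqo1, a quinone reductase often used to read NRF2 activity, had 4.91, 6.34, 6.12, 4.65 and 6.86 CPM on chow and 4.51, 5.23, 4.43, 2.95 and 5.78 on western diet. The western diet values reached lower, down to c4m4, but overlapped with chow (-0.33 ± 0.17 in log2, SE, edgeR adjusted p = 0.219). Hmox1, the inducible heme oxygenase, had 5.63 to 8.18 CPM on chow and 6.41 to 8.31 on western diet (edgeR adjusted p = 0.724). These levels rest on 55 to 162 reads per library for Nqo1 and 108 to 177 for Hmox1.

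The element that NRF2 binds has the core TGACNNNGC, and some promoters of these genes carry that sequence. Of the 36 genes, 30 had an entry in a RefSeq table of promoters (GRCm38.p6, from 250 bases before to 50 after the start site). On either strand 7 of them (23.3%) held TGACNNNGC, against 14.0% of the 27025 genes in the table. The AP-1 core TGANTCA, which reads alike on both strands and can lie inside an antioxidant response element, was held by 3 of the 30 genes (10.0%) against 9.0%. Such a match is a run of letters and no evidence of binding. The stretches below lie before the start site of Srxn1, which rose, and of 5 genes that were not called. They are shown 5′ to 3′ on the gene's strand, with the matches in capitals; a core on the opposite strand reads GCNNNGTCA.

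Srxn1 (chr2:152105402-152105505, plus strand, both capitals AP-1 cores): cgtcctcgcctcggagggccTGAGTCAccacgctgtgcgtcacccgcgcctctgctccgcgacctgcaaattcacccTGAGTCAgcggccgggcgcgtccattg
Prdx1 (chr4:116685349-116685494, plus strand, an AP-1 core and then an antioxidant core that holds another): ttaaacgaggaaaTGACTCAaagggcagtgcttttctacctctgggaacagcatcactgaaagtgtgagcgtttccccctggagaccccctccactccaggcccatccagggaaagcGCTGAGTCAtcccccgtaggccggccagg
Txnrd1 (chr10:82859094-82859142, plus strand, an antioxidant core): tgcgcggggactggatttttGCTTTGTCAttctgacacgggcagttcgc
Gclm (chr3:122245403-122245451, plus strand, an antioxidant core): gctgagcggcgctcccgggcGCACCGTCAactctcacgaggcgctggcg
Sod1 (chr16:90220686-90220734, plus strand, an antioxidant core): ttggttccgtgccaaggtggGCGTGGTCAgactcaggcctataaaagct
Nfe2l2 (chr2:75704875-75704913, minus strand, an antioxidant core): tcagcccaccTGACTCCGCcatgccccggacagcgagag

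Srxn1 carried its TGACNNNGC match 29 bases after the start site, and G6pdx had such a core as well. The AP-1 core of Glrx is not shown, and other forms of the antioxidant response element were not searched. No entry was used for Gclc, Prdx6, Hmox1, Gsr, Gsta4 and Trp53inp1.

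Glutathione synthesis starts with glutamate-cysteine ligase, whose catalytic subunit is Gclc and whose modifier subunit is Gclm, and only the catalytic subunit rose. Gclc (chromosome 9, 77754535 to 77794485) had 29.2, 28.0, 30.4, 29.3 and 30.7 CPM on chow and 36.1, 35.2, 33.8, 32.2 and 34.8 on western diet. The diets did not overlap, and Gclc was 16.6% higher on western diet (0.22 ± 0.06 in log2, SE, edgeR adjusted p = 0.0197). That call was lost without western diet c4m1 (edgeR adjusted p = 0.0504) or chow c3m1 (0.0505), though the log2 fold change stayed at 0.20 and 0.21. Gclm had 74.5, 84.2, 80.1, 75.7 and 79.3 CPM on chow and 76.2, 77.8, 70.9, 67.6 and 73.9 on western diet. It lay lower rather than higher and was not called (-0.10 ± 0.05 in log2, SE, edgeR adjusted p = 0.211).

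The later steps of the glutathione cycle showed no called change. Gss, which completes glutathione, had a log2 fold change of 0.10 ± 0.08 (SE), and Gsr, which returns oxidized glutathione to its reduced form, one of 0.05 ± 0.06. G6pdx, the first enzyme of the pentose phosphate pathway and a source of NADPH, had 18.2 to 25.4 CPM on chow and 24.3 to 26.2 on western diet. Apart from chow c3m2, every chow mouse lay below every western diet mouse, and G6pdx was not called (0.16 ± 0.08 in log2, SE, edgeR adjusted p = 0.19). Exons of Gss overlap those of Acss2 and exons of G6pdx those of Ikbkg on the opposite strand. The sources used here do not give whether reads were counted by strand.

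In the thioredoxin system Srxn1 rose and the carriers and reductases did not pass the test. Srxn1 encodes sulfiredoxin, which repairs overoxidized peroxiredoxins, and lies on chromosome 2 at 152105516 to 152111376. Chow mice had 43.8, 57.1, 47.6, 44.7 and 45.7 CPM and western diet mice 59.4, 56.8, 56.1, 62.1 and 57.5. Chow c3m2 stood with the western diet mice, and the other 4 chow mice lay below all of them. Its change of 0.29 ± 0.07 in log2 (SE, edgeR adjusted p = 0.0104) was the largest among the genes that rose, and the call held in every fit that left out 1 mouse (edgeR adjusted p from 9.9e-04 to 0.0368).

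Txnrd1, the cytosolic thioredoxin reductase and a known NRF2 target, stood at 136.8 ± 3.41 CPM after western diet against 133.5 ± 5.46 for chow (means ± SD of 5 mice). It differed by 0.04 ± 0.05 in log2 (SE, edgeR adjusted p = 0.663), so the western diet level lay within the spread of chow. Txn1, cytosolic thioredoxin, was at 0.07 ± 0.10. The mitochondrial pair gave 0.13 ± 0.07 for thioredoxin Txn2 and -0.0014 ± 0.11 for reductase Txnrd2. Txnip, which encodes an inhibitor of thioredoxin and is strongly glucose-responsive in beta cells, was not called (-0.21 ± 0.12 in log2, SE, edgeR adjusted p = 0.286).

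Peroxiredoxins reduce hydrogen peroxide and lipid peroxides, and Prdx6 rose while the other 5 were not called. Prdx6, the member that uses glutathione and also has phospholipase activity, lies on chromosome 1 at 161240112 to 161251219. It had 115.8, 120.7, 120.3, 123.6 and 123.2 CPM on chow and 144.2, 143.5, 136.2, 136.9 and 143.1 on western diet. A gap separated the diets and mice of a diet differed little, with a coefficient of variation of 2.60% on chow and 2.76% on western diet. Prdx6 was 16.7% higher on western diet (0.22 ± 0.04 in log2, SE, edgeR adjusted p = 0.0043). It was called in all 20 alternative fits (adjusted p from 1.3e-05 to 0.0354).

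All 5 other peroxiredoxins had log2 fold changes above 0, between 0.06 and 0.11. Prdx1 (0.07 ± 0.05 SE), a cytosolic NRF2 target, and Prdx2 (0.06 ± 0.05), another cytosolic form, were the most abundant of these 5 per gene length. The mitochondrial Prdx3 (0.11 ± 0.07) and Prdx5 (0.10 ± 0.07) and the endoplasmic reticulum form Prdx4 (0.08 ± 0.09) had edgeR adjusted p = 0.314, 0.337 and 0.58. Prdx2 shares exon bases with Junb on the opposite strand, a gene of 768.7 CPM on western diet and 1129 on chow that fell, so reads of Prdx2 are uncertain.

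**Figure D2:**
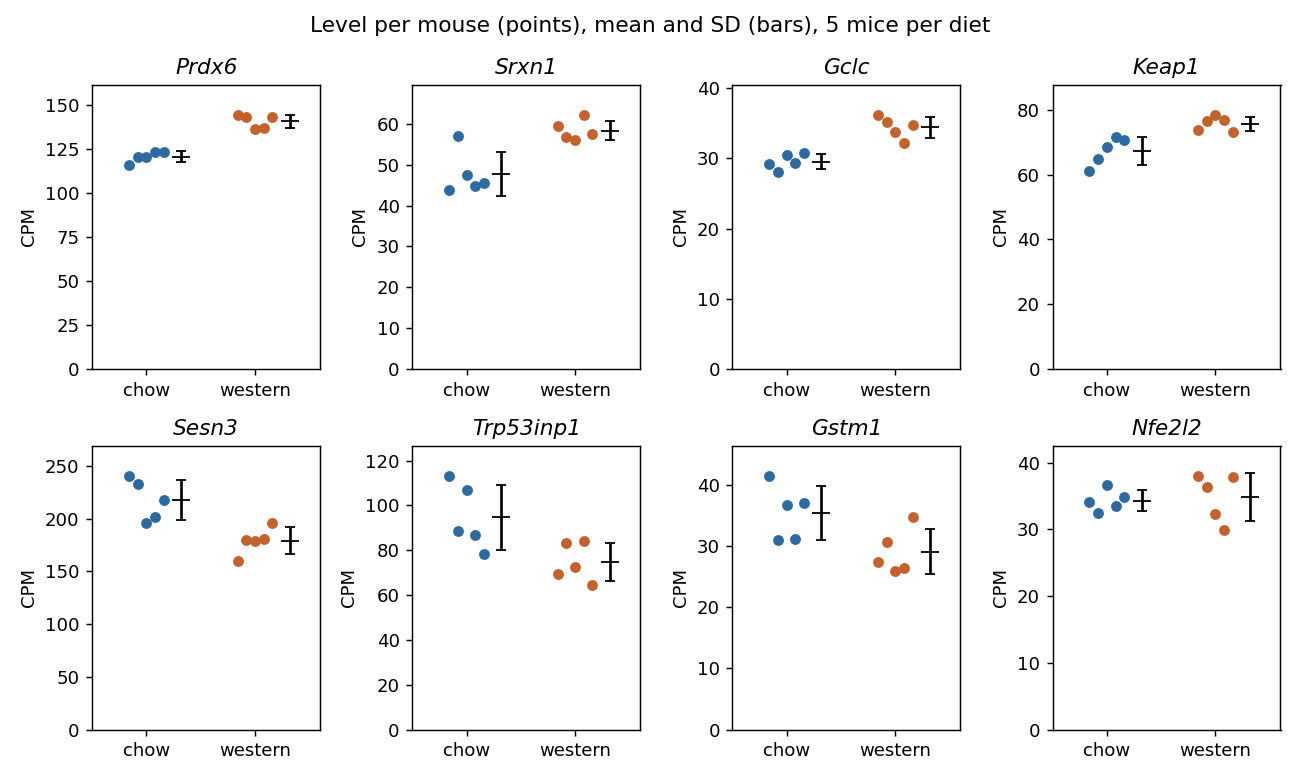
CPM per mouse (vertical axes, from 0) for 8 genes on chow (blue) and western diet (orange), with mean and SD of 5 mice as black bars. Prdx6, Gclc and Keap1 show no overlap between diets, Srxn1 overlaps through 1 chow mouse at 57.1 CPM, and Nfe2l2 overlaps fully.

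No glutathione peroxidase was called, and their levels ran from the highest of the list (Gpx3) to nearly the lowest (Gpx8). Gpx3, the secreted form, had 356, 277.9, 255.5, 320.1 and 316 CPM on chow and 284.5, 313.8, 229.6, 296.1 and 306.4 on western diet, with wide overlap (-0.09 ± 0.10 in log2, SE, edgeR adjusted p = 0.593). Gpx1, the main cytosolic form, had 60.8 to 71.9 CPM on chow and 64.3 to 82.4 on western diet (0.13 ± 0.07 in log2, SE, edgeR adjusted p = 0.207). Gpx4, which protects membranes from lipid peroxides and from ferroptosis, varied least between chow mice, at 72.7 ± 1.27 CPM against 77.2 ± 2.82 on western diet (means ± SD of 5 mice, 0.09 ± 0.05 in log2, SE, edgeR adjusted p = 0.228). Gpx7 and Gpx8, peroxidases of the endoplasmic reticulum, were near the limit of detection with 10 to 35 and 8 to 32 reads per library. Their standard errors of 0.29 and 0.34 on the log2 scale mean that moderate changes were not detectable at this depth.

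Enzymes that remove superoxide and hydrogen peroxide directly did not pass the test. Sod1, the cytosolic superoxide dismutase, had 127.7, 119.5, 131.9, 124.2 and 131.9 CPM on chow and 135.5, 141.7, 153.6, 136.1 and 131.1 on western diet. Western diet c2m5 alone fell within the chow range, and Sod1 differed by 0.14 ± 0.05 in log2 (SE, edgeR adjusted p = 0.096). Sod2, the mitochondrial form, was at 0.06 ± 0.05. Cat, catalase of peroxisomes, had 5.39 to 6.80 CPM on chow and 5.64 to 7.66 on western diet (edgeR adjusted p = 0.731). The glutaredoxins, which remove glutathione from protein thiols, were at 0.02 ± 0.08 for cytosolic Glrx and 0.15 ± 0.07 for Glrx2, neither called.

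Gstm1 and Gsta4 encode glutathione transferases, which attach glutathione to reactive compounds, and neither was called. Gstm1 had 41.4, 31.0, 36.7, 31.1 and 37.0 CPM on chow and 27.4, 30.7, 26.0, 26.5 and 34.8 on western diet. Of the western diet mice 4 lay below all chow mice, and c2m5 lay among them (-0.28 ± 0.09 in log2, SE, edgeR adjusted p = 0.062). Gstm1 was not called here, but it passed in 6 of 20 alternative fits. Among these were DESeq2 (adjusted p = 0.0414) and the fit without western diet c2m5 (edgeR adjusted p = 0.013). It belongs to a family of similar genes, so reads may be split between copies. Gsta4 was too low to test, at 0.42, 0.10, 0.63, 0.24 and 2.37 CPM on chow and 0.06 to 0.32 on western diet, and only chow c3m5 stood above 1 CPM.

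The 3 genes known as targets of p53 or FoxO factors had log2 fold changes below 0, and Sesn3 fell. Sestrins restrain the growth kinase mTORC1 and support antioxidant defence. Sesn3 (chromosome 9, 14275067 to 14333101) had 240.3, 232.6, 195.9, 202 and 217.9 CPM on chow and 160.1, 179.4, 179, 181.1 and 196.1 on western diet. Western diet c2m5 just reached the lowest chow mouse, c3m3, and the other 4 lay below all chow mice. It fell by 17.7% (-0.28 ± 0.06 in log2, SE, edgeR adjusted p = 0.0086), and the call held with each mouse left out (edgeR adjusted p from 0.0049 to 0.0237).

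Sesn1 stayed near its chow level (-0.03 ± 0.06 in log2, SE, edgeR adjusted p = 0.836). Trp53inp1, a stress-induced regulator of p53 and of autophagy, had 113.1, 88.5, 106.8, 86.7 and 78.3 CPM on chow and 69.2, 83.2, 72.8, 84.1 and 64.5 on western diet. The chow mice spread widely and c3m5 lay within the western diet range. Trp53inp1 was not called (-0.34 ± 0.11 in log2, SE, edgeR adjusted p = 0.0705), but passed in 4 of 20 alternative fits. These were edgeR without chow c3m5 (adjusted p = 0.0253) or without robust moderation (0.0406), limma-voom (adjusted p = 0.0455) and DESeq2 (adjusted p = 0.0094).

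Targets of p53 other than these moved both ways. Of 19 tested, 2 rose and 2 fell (10.5% each, against 5.27% and 5.5% of all genes tested). The 19 count Trp53 itself, and also Sesn2, which is counted again among the other pathway genes below. The exonuclease gene Aen (0.40 ± 0.07 in log2, SE, edgeR adjusted p = 0.0021) and the cell cycle inhibitor gene Cdkn1a (0.67 ± 0.18, 0.0452) rose. Btg2 (-0.48 ± 0.05, edgeR adjusted p = 2.8e-05), which is also an immediate early gene, and the cell death gene Bbc3 (-0.37 ± 0.11, 0.0422) fell. The Cdkn1a call was lost in 9 of the 10 fits that left out 1 mouse and was kept without western diet c2m5 (edgeR adjusted p = 1.9e-05). Bbc3 lost its call in 5 of those 10 fits, without western diet c4m2 or c4m5 or chow c3m2, c3m3 or c3m4, and had edgeR adjusted p up to 0.0957. Trp53 itself had a log2 fold change of -0.0073 ± 0.08 (SE).

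Other genes of the pathway were examined as a separate list of 56, of which 55 were tested; those named below that were not called, like Txnip and Trp53 above, were picked after their values were seen. Of these 2 rose and 4 fell, that is 3.64% and 7.27% against the shares of 5.27% and 5.5% among all genes, and their median log2 fold change was 0.06. Slc3a2, the heavy chain of the cystine importer and of other amino acid transporters, rose from 172.4 ± 9.97 to 211.7 ± 9.18 CPM (means ± SD of 5 mice, 0.30 ± 0.05 in log2, SE, edgeR adjusted p = 0.0016). Its partner Slc7a11, the cystine-specific light chain, stayed below 2 CPM on average, at 1.499 ± 0.747 on western diet and 0.793 ± 0.437 on chow (means ± SD of 5 mice, edgeR adjusted p = 0.169). Rbx1, a subunit of the ubiquitin ligase that KEAP1 recruits, rose by 0.20 ± 0.06 (log2, SE, edgeR adjusted p = 0.0286), a call lost in 5 of 10 fits that left out 1 mouse, without western diet c4m1, c4m2 or c4m5 or chow c3m1 or c3m3.

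Among the genes of that list that fell, Mafk, a small MAF partner of NRF2, went from 85.3 ± 6.91 to 60.9 ± 9.73 CPM with no overlap (means ± SD of 5 mice, -0.49 ± 0.10 in log2, SE, edgeR adjusted p = 0.012). A second small MAF gene, Maff, also separated the diets but was not called (-0.64 ± 0.19 SE, edgeR adjusted p = 0.0671). Mafg, another small MAF gene, overlapped between diets, at 97.6 ± 6.48 CPM on western diet and 98.0 ± 9.06 on chow (means ± SD of 5 mice). Mafg was not called either (-0.0055 ± 0.06 in log2, SE, edgeR adjusted p = 0.969). The mitochondrial isocitrate dehydrogenase gene Idh2, an NADPH supplier, fell (-0.27 ± 0.05 SE, edgeR adjusted p = 0.0048). So did the transketolase gene Tkt of the pentose phosphate pathway (-0.25 ± 0.06 SE, edgeR adjusted p = 0.014). The glutathione transferase gene Gstm2 fell as well (-0.39 ± 0.11 SE, edgeR adjusted p = 0.0333), and lost its call in 6 of 10 fits that left out 1 mouse, without western diet c4m1, c4m2 or c4m4 or chow c3m2, c3m4 or c3m5.

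Levels can be compared between genes only per length, as RPKM. On that scale, averaged over the 10 mice, Gpx3 was the most abundant of the 36 genes at 163 RPKM, followed by Nfe2l1 (71.0), Gpx1 (48.2), Gpx4 (43.5), Prdx1 (38.1) and Sod1 (33.6). Hmox1 (4.05), Nqo1 (3.33) and Cat (2.36) lay in the lower part of the list. Gpx7 (0.994), Gpx8 (0.792) and Gsta4 (0.379) closed it. Lengths are those of whole gene models, so a gene with long models, such as Sod2 at 10008 bases, can appear lower than its main transcript is. Between mice of a diet, the tested genes had a median coefficient of variation of 7.46% on chow and 7.40% on western diet.

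**Figure D3:**
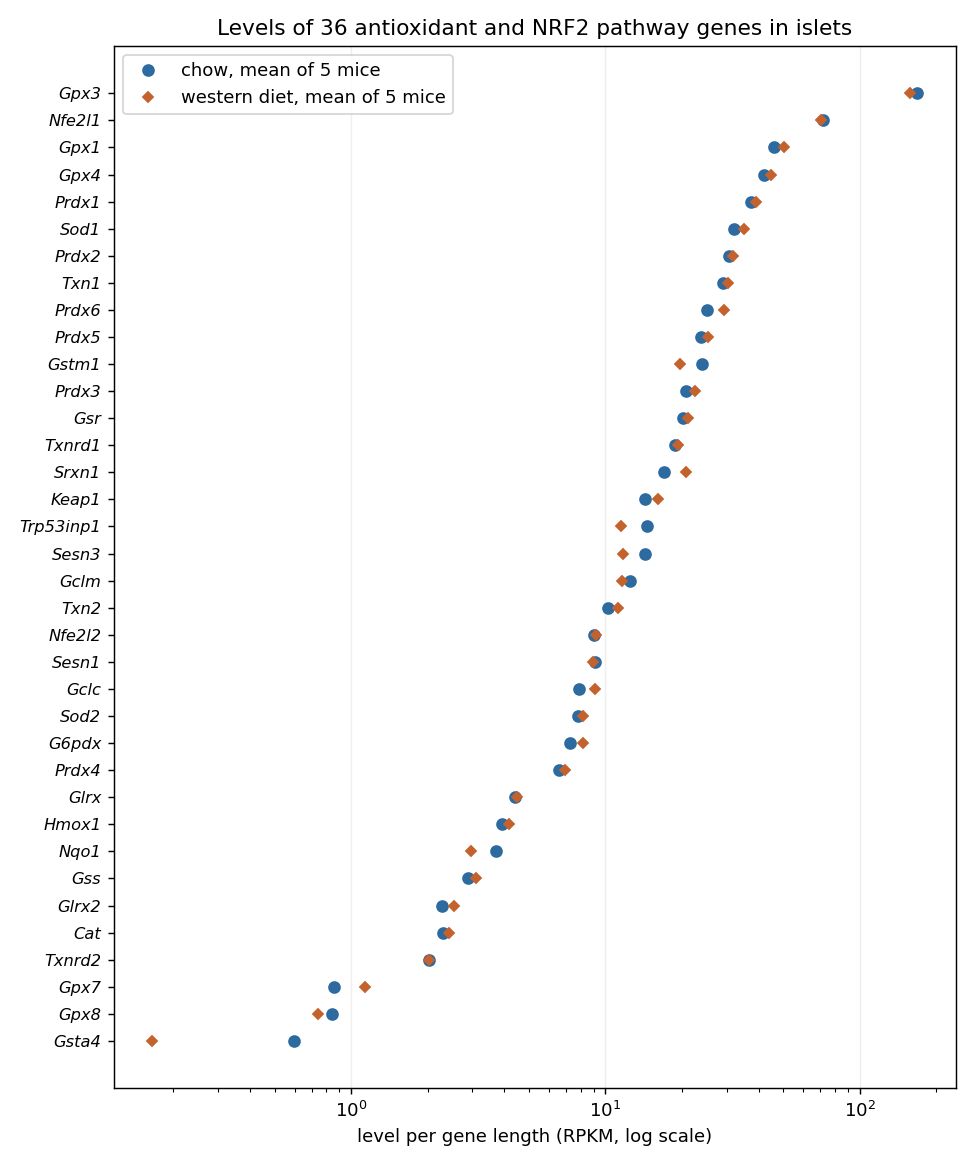
Level per gene length (RPKM, log axis) of the 36 genes, with the mean of 5 chow mice as circles and of 5 western diet mice as diamonds. Points run from 168.3 RPKM for Gpx3 on chow to 0.165 for Gsta4 on western diet, and the diets lie close together except for the lowest genes.

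**Figure D4:**
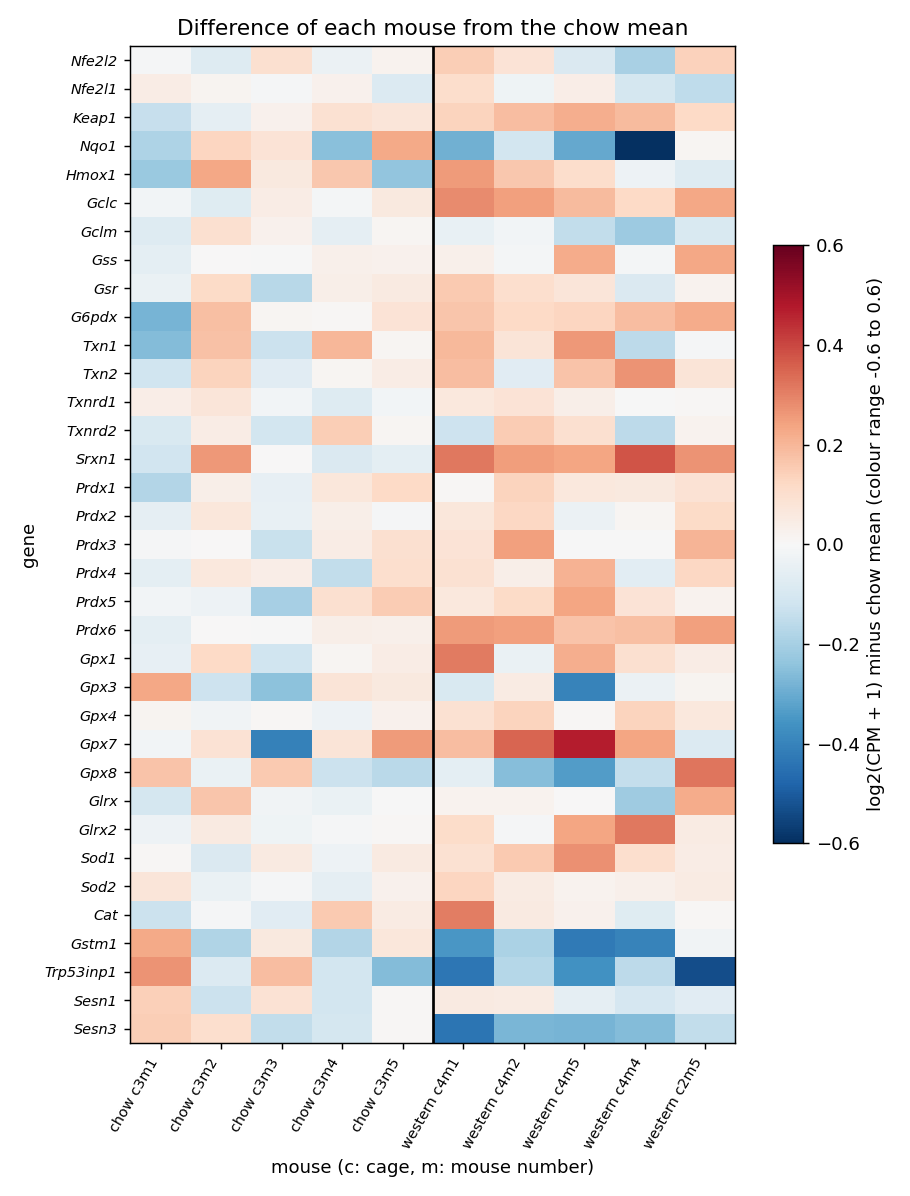
Log2(CPM + 1) of each of the 35 tested genes (rows) in each mouse (columns) minus the mean of the chow mice, in red where higher and blue where lower (full colour from 0.6 on), with a black line between the diets. Rows of Keap1, Gclc, Srxn1 and Prdx6 are red in all 5 western diet mice and the row of Sesn3 is blue in all 5. Some rows of genes not called do the same, such as Sod1 and G6pdx in red and Trp53inp1 in blue.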

How the data were processed

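The authors deposited 1 table of raw read counts per gene and library, per the file headers; the submitters' processing notes list STAR 2.5, HTSeq 2 and DESeq2, and as builds GRCm38 and mm10, without saying what each did. The same table holds the authors' log2 fold changes, adjusted p-values and gene lengths (another unit, bases, per the file headers). Its other 20 columns of per-sample values were not used. The libraries, 1 per mouse, held 16532518 to 23902681 counts, and p-values measure the spread between these mice.

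Genes were kept by filterByExpr (minimum count 10), scaled with TMM factors and tested with edgeR 4.0.16 in R 4.3.3 (robust quasi-likelihood, no covariate). P-values were adjusted by Benjamini-Hochberg over all 15104 genes, and the test was checked on simulated data. A standard error is the size of the log2 fold change over the root of F. Alternatives used limma 3.58.1 and DESeq2 1.42.0, other scaling, filters, a mouse number block, and each mouse left out. All 36 genes and up to 8 called genes of each other list were named. The genes and lists were chosen with earlier results of these data known. GENCODE M21 gave the same coordinates for all 36 genes, of which 7 share exon bases with another gene.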

Additional observations from a re-analysis of the deposited data

Results flagged for a closer look

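In 3 of the 72 groups of 5 mice examined, 1 mouse stood apart from the other 4 by more than the critical share of the range, and chance gives about 1 in 20 groups. Srxn1 was at 57.1 CPM in chow c3m2, against 43.8 to 47.6 in the other chow mice. Sod2 was at 85.5 CPM in western diet c4m1, against 79.4 to 81.0 in the others of that diet. Gsta4 was at 2.37 CPM in chow c3m5, against 0.0968 to 0.629 in the other chow mice.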

How the results depend on the processing

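Prdx6, Srxn1 and Sesn3 kept their calls in all 20 alternative fits, and no called gene named in the text changed direction. With 4 genes higher and 1 lower as reported, leaving out each mouse in turn gave 2 to 4 higher and 1 to 2 lower. The count lower was 2 with a minimum of 5 CPM, limma-voom or no robust moderation, and 3 with DESeq2. Without western diet c2m5 and chow c3m1 together, 2 rose and 2 fell. Of the other pathway genes (2 higher, 4 lower), 1 to 4 were higher with each mouse left out. DESeq2 gave 4 higher and 7 lower, and a minimum of 5 CPM gave 7 lower. Of the 4 called p53 targets, 2 to 4 were called with each mouse left out. Over all genes 1627 were called, and 938 (without chow c3m1) to 1813 (without western diet c2m5) with each mouse left out. The cause was not tested.

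The labels name no pairing by mouse number. In same-numbered pairs of cage 4 and cage 3, deviations from the diet mean had correlations from -0.0584 to 0.0787. Differently numbered pairs were not compared, so these values cannot show that mouse number is without effect. With mouse number as a replicate block, 841 genes were called in all, 2 of the 36 genes rose (Gclc and Keap1 lost their calls) and 1 of the other pathway genes rose. In that fit chow c3m3 had no western diet mouse of its number and added nothing to the contrast. Western diet c4m5 and c2m5 shared a block with chow c3m5. Of the 36 genes, 5 that were not called crossed 0. With each mouse left out, log2 fold changes ran from -0.00601 to 0.0707 for Nfe2l2, -0.0595 to 0.00591 for Nfe2l1, -0.0437 to 0.0643 for Glrx, -0.0599 to 0.00327 for Sesn1 and -0.0442 to 0.0338 for Txnrd2. Txnrd2 was at 0.0010 with no filter, Glrx at -0.00091 with a minimum of 5 CPM and -0.0062 with the block, and Sesn1 at 9.1e-05 with the block. Without western diet c2m5 and chow c3m1 together, Nfe2l2 was at -0.0101, Nfe2l1 at 0.0137, Glrx at -0.0741 and Sesn1 at 0.0198. Genes named in the text but not called, outside the 36, were not run under the alternatives. The read depth limits Gpx7, Gpx8 and Gsta4.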

Other observations

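Some related genes stood at unequal changes. The pairs below were picked after the values were seen, each for a called gene beside an uncalled relative, so they are a description without a test. The log2 ratio of Gclc to Gclm was -1.09 ± 0.031 on western diet and -1.42 ± 0.098 on chow (SD over 5 mice a diet), with no overlap between diets. The log2 ratio of Prdx6 to Prdx1 was 0.25 ± 0.057 on western diet and 0.096 ± 0.082 on chow, and that of Sesn3 to Sesn1 was 2.33 ± 0.16 and 2.59 ± 0.167, both with overlap.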
